A study of Mus musculus with 39 samples.

Results

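The COP-I coat and the KDEL receptors were examined in MIN6 cells, a mouse insulinoma line used as a model of the pancreatic β cell. The set held the 7 subunits of the coat (Copa, Copb1, Copb2, Copg1, Arcn1, Cope and Copz1) and the 3 KDEL receptors (Kdelr1, Kdelr2 and Kdelr3). They were found by gene symbol, a rule that uses no measured value, although the set was proposed with earlier results of these data known. All 10 were present among the 24421 genes of the RNA-seq count table and among the 21752 genes that passed the filter on low counts. Cells received 0.1% DMSO as vehicle, 5 µM SW016789, a small molecule that induces insulin hypersecretion, or 100 nM thapsigargin, which depletes the Ca2+ of the endoplasmic reticulum (ER) and served as the ER stress control. Each agent was given for 1, 2, 6 or 24 h with staggered starts and a common harvest, and untreated cells gave a 0 h baseline. The 13 groups held 3 libraries each, 1 from each of 3 independent experiments, for 39 libraries in all. All of them came from this single transformed line, so they stand for MIN6 cultures and not for β cells within islets.

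COP-I vesicles carry cargo backwards, from the Golgi to the ER and between Golgi cisternae. The GTPase Arf1 recruits the coat to the membrane as a complete heptamer, in which Copa, Copb2 and Cope form the outer layer and Copb1, Copg1, Arcn1 and Copz1 the inner, adaptor-like layer. Soluble chaperones of the ER lumen end in a KDEL-type tetrapeptide. A KDEL receptor binds this signal when such a protein escapes to the Golgi and returns it to the ER in a COP-I vesicle. In a β cell this loop runs against the heavy forward flow of proinsulin.

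Total counts per library ranged from 9150443 to 47616080 (median 32153770). The coat and the receptors were counted deeply in every library, from 525 counts upwards, with the exception of Kdelr3, which had 72 to 1115. Levels are given as counts per 1e+06 counts (CPM) after scaling with TMM factors, which align the bulk of the genes between libraries. All 10 β-cell markers, Ins1, Ins2 and Pdx1 among them, were at 1 CPM or more at 0 h, as were 4 of 12 markers of stroma, endothelium and immune cells, 2 of 12 of the exocrine pancreas and ducts, and, for the remaining islet cell types, 1 of 6. Reads between genes took 6.17% to 36.6% of a library, and 6 libraries exceeded 25%, 2 of them with SW016789 (1 h and 6 h, replicate 1 of each) and 4 with thapsigargin (1 h replicate 2, 2 h replicates 1 and 3, and 6 h replicate 2). Because these are bulk samples, fewer cells of a type and less RNA per cell cannot be told apart.

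In the 15 untreated and vehicle libraries the coat was expressed at a steady level. Per kb of exon, Arcn1 (the δ subunit) had the highest coat level at 169 ± 8.45 CPM per kb (SD, n = 15), followed by Copa (α) at 148 ± 5.18 and Copb2 (β′) at 105.5 ± 3.62. Copb1 (β, 80.8 ± 6.37), Cope (ε, 78.9 ± 5.94) and Copz1 (ζ1, 72.2 ± 4.88) followed, with neighbours that did not differ beyond their spread, and Copg1 (γ1) was lowest at 62.7 ± 2.72 CPM per kb. Of the receptors, Kdelr2 stood at 173 ± 14.6 CPM per kb and Kdelr1 at 126 ± 7.82. Kdelr2 and Arcn1 did not differ beyond their spread. Kdelr3 was a minor transcript at 4.84 ± 0.949 CPM per kb, and at 0 h it made up 1.63% ± 0.296 (SD, n = 3) of the summed receptor level against 56.5% ± 1.02 for Kdelr2 and 41.9% ± 0.799 for Kdelr1.

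No effect of the vehicle on the set was detected. Against the 0 h baseline, none of the 10 members was called at 1, 2, 6 or 24 h of DMSO by edgeR's quasi-likelihood test at a Benjamini-Hochberg adjusted p below 0.05, none had an unadjusted p below 0.05 and DESeq2 called 0. The share of all tested genes called by edgeR was 0% at 1 h, 0.00919% at 2 h, 0% at 6 h and 0% at 24 h. In the same order 472, 1881, 427 and 413 of 21752 genes had an unadjusted p below 0.05. DESeq2 called 5, 89, 11 and 12 genes. Kdelr3 at 2 h of DMSO spread widely, with 3.00, 6.68 and 7.18 CPM. The lowest value was from replicate 2, in which Copb1 was at 329 CPM against 247 and 252 in the others. Kdelr2 was at 381 CPM in that library against 288 and 278.

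The genes lie on several chromosomes of the mm10 assembly: Copa at chr1:172082529-172122332, Copb1 at chr7:114215559-114254680, Copb2 at chr9:98563731-98588375, Copg1 at chr6:87887940-87913594, Arcn1 at chr9:44742144-44767808, Cope at chr8:70302785-70312990, Copz1 at chr15:103272918-103299864, Kdelr1 at chr7:45872840-45883726, Kdelr2 at chr5:143403820-143421904 and Kdelr3 at chr15:79516408-79527739. Promoter sequence from RefSeq, 250 bases before to 50 bases after the start of each gene on GRCm38 (mm10), covered 8 members, all but Arcn1 and Kdelr2. These windows were searched on both strands for elements known from ER stress promoters. The ER stress response element (ERSE: CCAAT, 9 bases of any kind, CCACG) was in 0 of the 8 windows and in 0.119% of all 32851 promoters, and ERSE-II (ATTGG, 1 base of any kind, CCACG) was in 0 of 8 and in 0.0365%. The core of the unfolded protein response element, TGACGTGG, was in 3 of 8 and in 0.676% of all promoters. Read on the other strand this core contains the CCACG of both ERSE forms. Of the members whose windows lacked it, Copa, Copg1 and Copz1 were also called higher at 6 h of SW016789 (log2 fold changes 0.40, 0.35 and 0.45). Cope and Kdelr1, also without it, were not called. The surroundings of the match are shown for the 3 members that held it, to place these letters in genes that rose at 6 h of SW016789, and a match is a description of the letters only. Each is read along the strand of the gene, capitals mark the match, which reads TGACGTGG on the opposite strand, and its first base is counted from the gene's start.
Copb1, chr7:114254690-114254719, minus strand, core from base -28: cccgcccccttCCACGTCAgccaaggactt
Copb2, chr9:98563713-98563742, plus strand, core from base -7: tcccggaagttCCACGTCAgtgggttggcc
Kdelr3, chr15:79516367-79516396, plus strand, core from base -30: tggccgccccgCCACGTCAccgcgcggcca

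To ask how the retrieval machinery responded to hypersecretion, each SW016789 group was set against the DMSO group of equal duration. At 6 h, 8 of the 10 coat and receptor genes were called higher and 0 lower, all but Cope and Kdelr1, against 4.19% of all tested genes called higher and 2.85% lower. In all 10, the 3 SW016789 libraries lay above the 3 DMSO libraries, which was so for 12.4% of tested genes. The log2 fold changes ran from 0.27 to 1.55, with a median of 0.43 against 0.12 over all tested genes. The median was -0.01 over the 9938 genes that averaged 10 CPM or more. All 10 members had an unadjusted p below 0.05 by edgeR, as did 4782 of the 21752 tested genes. DESeq2 called all 10, and 2406 of the 18736 genes it tested. At 24 h, 9 of 10 were called higher and 0 lower, against 1.95% higher and 1.06% lower among all tested genes. Again all 10 were without overlap (11% of tested genes), and the median was 0.40 against 0.06 over all tested genes. All 10 again had an unadjusted p below 0.05 by edgeR (2258 of the 21752 tested genes). DESeq2 called all 10, and 1263 of the 10887 genes it tested.

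**Figure D1:**
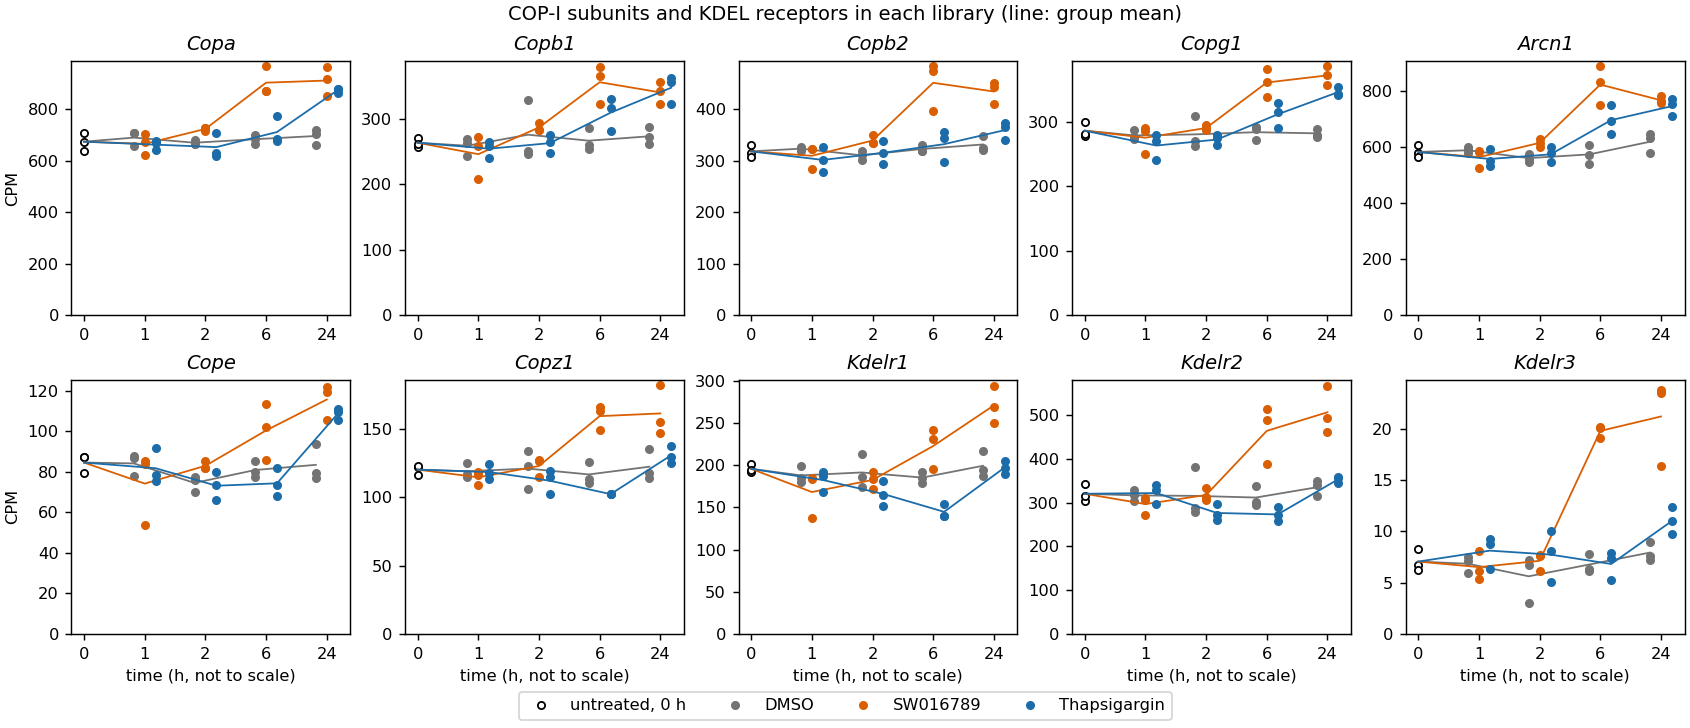
Level of each member in every library, in CPM on axes that start at 0, against time in h (not to scale); points are libraries, 3 per group, and lines join the group means. SW016789 points stand above the DMSO points in all 10 panels at 6 and 24 h, while Kdelr1 and Copz1 dip with thapsigargin at 6 h.

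In the outer layer of the coat, the abundant subunits Copa and Copb2 rose at 6 h of SW016789. Copa, whose WD40 domains bind dilysine retrieval signals of membrane cargo, was at 667, 686 and 700.4 CPM with DMSO at 6 h and at 870.7, 870.8 and 970.2 CPM with SW016789, a log2 fold change of 0.40 ± 0.070 (SE; edgeR quasi-likelihood adjusted p = 9.1e-05). Copb2, the other subunit with such domains, was at 319, 319 and 330.1 CPM with DMSO and at 397, 473.5 and 483 CPM with SW016789, a log2 fold change of 0.48 ± 0.078 (edgeR adjusted p = 2.6e-05). Cope, which stabilises Copa, was at 77.7, 79.9 and 85.2 CPM against 85.7, 102.1 and 113.5 CPM, and its log2 fold change of 0.31 ± 0.12 missed the threshold (edgeR adjusted p = 0.0995). With the experiment number as a block, Cope passed (log2 fold change 0.31 ± 0.10, edgeR adjusted p = 0.042).

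The inner layer included the largest change among the coat subunits. Arcn1 was at 541, 572 and 608.5 CPM with DMSO at 6 h and at 749, 830.3 and 888 CPM with SW016789, a log2 fold change of 0.52 ± 0.072 (edgeR adjusted p = 1.7e-06). Copb1, which contacts Arf1, was at 254, 260.4 and 286 CPM against 323, 365 and 379.8 CPM (0.42 ± 0.094, edgeR adjusted p = 0.00249). For both genes every SW016789 library exceeded every DMSO library. Copg1, the other Arf1-binding subunit, was at 271, 289 and 291 CPM against 338, 362 and 382 CPM (0.35 ± 0.072, edgeR adjusted p = 0.00098). Copz1, the small subunit that pairs with Copg1, was at 110.8, 113.7 and 126 CPM against 149.8, 163 and 166 CPM (0.45 ± 0.085, edgeR adjusted p = 0.00029).

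Among the receptors, Kdelr3, the scarcest, had the largest fold change at 6 h. Kdelr3 was at 6.18, 6.37 and 7.77 CPM with DMSO at 6 h and at 19.2, 20.1 and 20.1 CPM with SW016789, 2.92-fold higher (log2 fold change 1.55 ± 0.24, 95% interval 1.05 to 2.04, edgeR adjusted p = 2e-05). Kdelr2 was at 295, 302 and 338 CPM against 389, 489 and 514 CPM, 1.49-fold higher (0.57 ± 0.10, edgeR adjusted p = 8.2e-05). Kdelr1 was at 179, 185 and 192 CPM against 195, 232 and 242 CPM, a narrow separation whose log2 fold change of 0.27 ± 0.095 missed the threshold (edgeR adjusted p = 0.0923) and passed with the experiment number as a block (0.26 ± 0.084, edgeR adjusted p = 0.0429). The 3 intervals did not all part: that of Kdelr3 lay above that of Kdelr2 (0.37 to 0.78), and those of Kdelr2 and Kdelr1 (0.07 to 0.46) overlapped. The difference between receptors was not tested.

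The 6 h count fell when some single libraries were left out, and so did the calls over all genes. The count was 3 without DMSO replicate 1, 2 without SW016789 replicate 2 and 3 without SW016789 replicate 3. The calls over all genes, 1531 in the full fit, were then 572, 591 and 874. Only Kdelr2 and Kdelr3 kept their call whichever of the 6 libraries was left out. In these refits the log2 fold change was 0.25 to 0.39 for Copg1, the lowest of the called subunits. For Arcn1, the highest, it was 0.41 to 0.58. Without the libraries above 25% intergenic reads, which removed SW016789 replicate 1, the count was 10, with 1405 calls over all genes.

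At 24 h of SW016789 all members but Copb1 were called higher. Copa was at 663, 705 and 721 CPM with DMSO and at 853, 919 and 964.5 CPM with SW016789 (log2 fold change 0.39 ± 0.070, edgeR adjusted p = 0.0004). Copg1 was at 277, 279.9 and 289 CPM against 356, 373 and 387 CPM (0.40 ± 0.072, edgeR adjusted p = 0.00038). In both, every SW016789 library exceeded every DMSO library. Copb2 (0.39 ± 0.078, edgeR adjusted p = 0.00156), Copz1 (0.40 ± 0.085, 0.00331), Arcn1 (0.31 ± 0.071, 0.00808) and Cope (0.47 ± 0.11, 0.0125) were also called. Copb1, at 261.5, 272 and 287 CPM against 323, 343 and 356 CPM, was not (0.32 ± 0.093, edgeR adjusted p = 0.0544) and passed with the experiment number as a block (edgeR adjusted p = 0.0356).

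All 3 receptors were called at 24 h of SW016789. Kdelr3 was at 7.24, 7.64 and 8.93 CPM with DMSO and at 16.4, 23.5 and 23.8 CPM with SW016789, 2.67-fold higher (1.42 ± 0.24, edgeR adjusted p = 0.00019). Kdelr2 was at 315, 341 and 349 CPM against 460.5, 494 and 566 CPM (0.60 ± 0.10, edgeR adjusted p = 0.00013). Kdelr1 was at 188, 194 and 217 CPM against 250.6, 269 and 294 CPM (0.44 ± 0.095, edgeR adjusted p = 0.00389). The count of 9 became 4 without DMSO replicate 1, 4 without DMSO replicate 3 and 5 without SW016789 replicate 2. The calls over all genes, 655 in the full fit, were then 314, 325 and 369. Copa, Copg1, Kdelr2 and Kdelr3 kept their call in each case. The call of Arcn1 was lost whichever of the 6 libraries was left out (log2 fold changes 0.25 to 0.32), and that of Cope was lost in 4 of 6 cases and those of Copb2, Copz1 and Kdelr1 in 3 of 6 each.

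Before 6 h the set gave no call. At 1 h of SW016789 the 10 log2 fold changes lay between -0.17 and -0.02, and at 2 h between -0.07 and 0.35. At either time 0 members were called by edgeR, 0 had an unadjusted p below 0.05 and 0 were called by DESeq2. Of all tested genes 0.372% and 2.58% were called by edgeR. Such a p was held by 3323 and 2571 of 21752 genes, and DESeq2 called 373 and 1156. At 2 h, 9 of the 10 fold changes were above 0, and in 4 members (Copa, Copb2, Arcn1 and Cope) every SW016789 library exceeded every DMSO library. The share of all tested genes so separated at 2 h was not counted. The 2 h DMSO group held the replicate 2 library with high Copb1 and Kdelr2. The change of the effect from 2 h to 6 h was tested as an interaction. It was above 0 for all 10 members and was called for Kdelr2 (0.57 ± 0.14, edgeR adjusted p = 0.0274) and Arcn1 (0.39 ± 0.10, edgeR adjusted p = 0.041), where 1.32% of tested genes were called. For Kdelr3 it was 1.20 ± 0.35 and missed the threshold (edgeR adjusted p = 0.0775), and for Copz1 it was 0.43 ± 0.12, passing with the experiment number as a block (edgeR adjusted p = 0.0655 without and 0.012 with it). Leaving out 1 library took this count to 0 for 9 of the 12 libraries concerned. DESeq2 called 8 members, and 766 of the 12272 genes it tested. The calls of this change over all genes were 287 in the full edgeR fit and 45 to 697 in these refits. From 6 h to 24 h no member's SW016789 effect was called as changed by edgeR (differences from -0.21 to 0.18). Arcn1 was at an unadjusted p below 0.05 and 1 member was called by DESeq2. Over all genes 1999 of 21752 had such a p, and DESeq2 called 808 of 10887. Over the 4 times together, all 10 members differed between SW016789 and DMSO, against 9.04% of tested genes, and 6 did so without DMSO replicate 1 or SW016789 replicate 2 of 6 h. The calls over all genes, 1966 in the full fit, were then 907 and 994.

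Thapsigargin was compared with the same DMSO libraries to see how the set responded to an ER stressor. At 6 h, 1 of 10 members was called higher and 1 lower, against 8.06% of tested genes higher and 8.73% lower, so both counts were near the background. The median log2 fold change of the set was 0.02. Over all tested genes the median was 0.30, and over those with at least 10 CPM it was -0.04. Arcn1 rose, from 541, 572 and 608.5 CPM with DMSO to 645, 693 and 749.6 CPM with thapsigargin (0.28 ± 0.071, edgeR adjusted p = 0.00494). Kdelr1 fell, from 179, 185 and 192 CPM to 139.7, 140.2 and 154.5 CPM (log2 fold change -0.36 ± 0.096, edgeR adjusted p = 0.00768). Copz1 was at 102.3, 102.3 and 102.8 CPM, below each DMSO library, with a log2 fold change of -0.19 ± 0.085 (edgeR adjusted p = 0.102) that passed with the experiment number as a block (edgeR adjusted p = 0.0483). Kdelr2, at 258, 272 and 289 CPM, also lay below its DMSO libraries without passing (-0.19 ± 0.10, edgeR adjusted p = 0.152). Kdelr3, at 5.26, 7.36 and 7.845 CPM, overlapped with DMSO. The share of all tested genes that lay wholly below their DMSO libraries was not counted. Without DMSO replicate 1 neither the call of Arcn1 nor that of Kdelr1 held, and the calls over all genes fell from 3653 to 1673. Without thapsigargin replicate 1 or 3 or DMSO replicate 2 or 3, the call of Kdelr1 held and that of Arcn1 did not. The calls over all genes were then 2380 to 3806. Over the 6 refits the log2 fold change was 0.096 to 0.297 for Arcn1 and -0.533 to -0.356 for Kdelr1. At 1 h and 2 h of thapsigargin edgeR and DESeq2 called 0 members (0.046% and 1.38% of tested genes by edgeR). An unadjusted p below 0.05 was reached by 0 and 1 members, the latter Kdelr1. Over all genes 2613 and 3908 of 21752 had such a p, and DESeq2 called 38 and 1031.

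By 24 h of thapsigargin a part of the coat had risen, and none of the receptors was called. The call was reached by 5 of 10 members, all coat subunits and all higher, against 10.1% of tested genes higher and 10.7% lower, and the median log2 fold change of the 10 was 0.28 against 0.07 over all tested genes. The values with thapsigargin at 24 h were 865, 879 and 880.3 CPM for Copa (0.33 ± 0.070, edgeR adjusted p = 0.0004), 324, 357 and 362.5 CPM for Copb1 (0.35 ± 0.093, 0.00499) and 342, 343 and 354 CPM for Copg1 (0.30 ± 0.072, 0.00178). Arcn1 (0.27 ± 0.071, edgeR adjusted p = 0.00433) and Cope (0.38 ± 0.11, edgeR adjusted p = 0.0124) were the other 2. In each of these 5 genes the thapsigargin libraries lay above the DMSO libraries. The share of all tested genes separated in this way was not counted for thapsigargin. Copb2 (0.12 ± 0.078), Copz1 (0.10 ± 0.085), Kdelr2 (0.08 ± 0.099) and Kdelr1 (-0.01 ± 0.095) overlapped with DMSO. Kdelr3 was at 9.725, 10.98 and 12.3 CPM against 7.24, 7.64 and 8.93 CPM, above DMSO in each library yet short of the threshold (0.47 ± 0.24, 95% interval -0.02 to 0.96, edgeR adjusted p = 0.196). The count of 5 became 0 without thapsigargin replicate 3, 1 without thapsigargin replicate 2, 1 without DMSO replicate 3 and 3 without DMSO replicate 2. The calls over all genes, 4511 in the full fit, were then 3054, 3508, 3622 and 3651. Over the 4 times together, 5 members differed between thapsigargin and DMSO (Copa, Copb1, Copg1, Arcn1 and Kdelr1) against 29.8% of tested genes. That count ran from 0 to 5 when single libraries were left out, with 16 of the 24 libraries moving it by over 1.5 times. The calls over all genes ran from 4177 to 10181 in these refits, against 6476 in the full fit. No change of the thapsigargin effect between successive times was called by edgeR for a member without the block. At an unadjusted p below 0.05 these changes numbered 0 from 1 h to 2 h, 2 from 2 h to 6 h and 4 from 6 h to 24 h. DESeq2 called 0, 1 and 2. Over all genes 1021, 2774 and 4240 of 21752 had such a p. DESeq2 called 45 of 10426, 1458 of 11810 and 2104 of 18274 genes. With the block, the change of Cope from 6 h to 24 h was called (0.50 ± 0.14, edgeR adjusted p = 0.0182), and so was Cope over the 4 times together (edgeR adjusted p = 0.0201). Over all genes these 2 tests then had 2029 and 10216 calls.

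**Figure D2:**
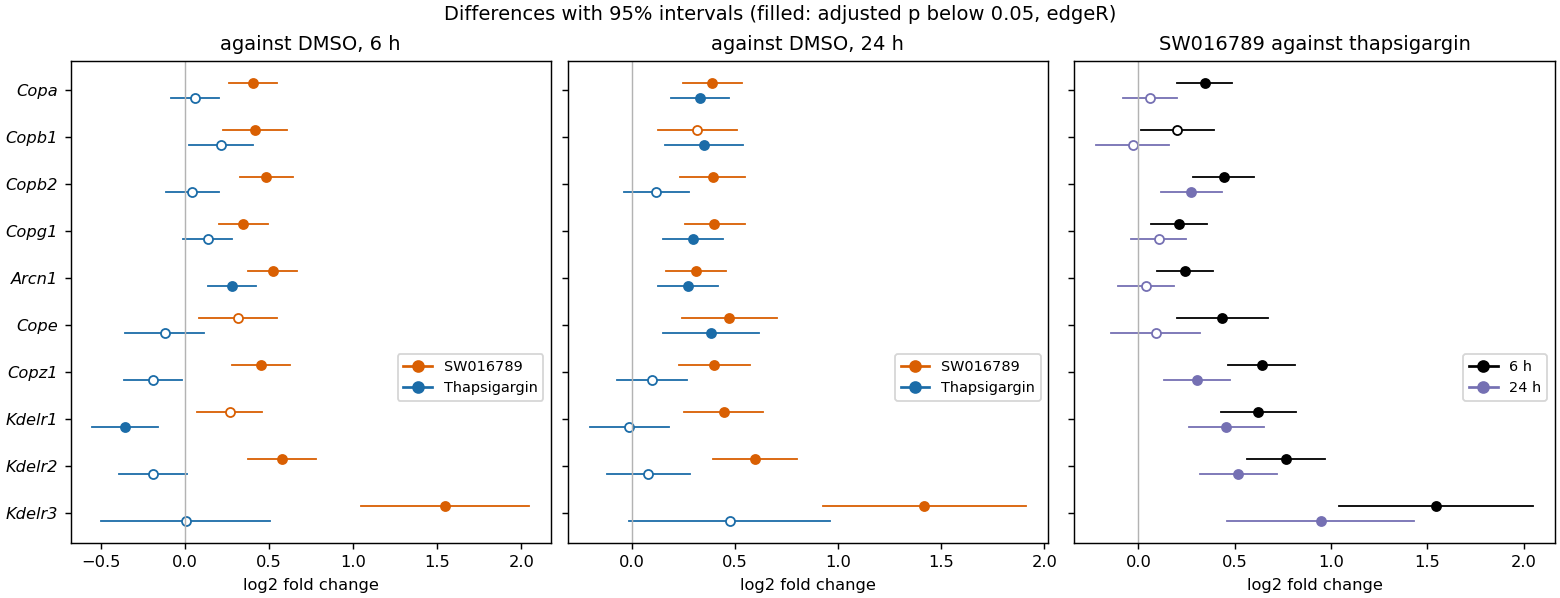
Log2 fold change of each member with its 95% interval, for SW016789 and thapsigargin against DMSO at 6 h and 24 h and for SW016789 against thapsigargin directly; filled points passed edgeR's adjusted p of 0.05. Kdelr3 with SW016789 lies farthest to the right (1.55 at 6 h and 1.42 at 24 h), and Kdelr1 with thapsigargin at 6 h (-0.36) is the filled point to the left of 0.

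Since both treatments were set against shared DMSO libraries, they were also compared directly. At 6 h, 9 of 10 members were higher with SW016789 than with thapsigargin and 0 lower, where 7.54% of tested genes were higher and 4.01% lower. The log2 differences were 1.54 ± 0.25 for Kdelr3 (edgeR adjusted p = 2.6e-05), 0.77 ± 0.10 for Kdelr2 (8e-07), 0.64 ± 0.086 for Copz1 (1.2e-06) and 0.62 ± 0.096 for Kdelr1 (1.4e-05). These 4 kept their call whichever of the 6 libraries was left out. The others were smaller: 0.44 ± 0.078 for Copb2 (edgeR adjusted p = 9.9e-05), 0.44 ± 0.12 for Cope (0.00885), 0.34 ± 0.070 for Copa (0.0006), 0.24 ± 0.071 for Arcn1 (0.0205) and 0.21 ± 0.072 for Copg1 (0.0486). Copb1 did not pass (0.20 ± 0.094, 95% interval 0.01 to 0.39, edgeR adjusted p = 0.182). The count became 4 without SW016789 replicate 2, 4 without SW016789 replicate 3 and 4 when the fit held only the libraries compared. The calls over all genes, 2513 in the full fit, were then 943, 915 and 749.

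At 24 h the 2 treatments differed in 5 members, all higher with SW016789, where 9.78% of tested genes were higher and 8.26% lower. These were the 3 receptors, Kdelr3 (0.95 ± 0.24, edgeR adjusted p = 0.00338), Kdelr2 (0.52 ± 0.099, 0.00013) and Kdelr1 (0.46 ± 0.095, 0.0004), with Copz1 (0.30 ± 0.085, 0.00804) and Copb2 (0.27 ± 0.078, 0.00934). The receptors kept their call whichever library was left out, and the count was 3 without thapsigargin replicate 1 and 3 without thapsigargin replicate 3. The calls over all genes, 3924 in the full fit, were then 3230 and 2358. The remaining coat subunits were not called, with 95% intervals of -0.08 to 0.20 for Copa, -0.22 to 0.16 for Copb1, -0.04 to 0.25 for Copg1, -0.11 to 0.18 for Arcn1 and -0.14 to 0.32 for Cope. The interval of Cope reached past the called differences of Copb2 and Copz1, and in Copg1 every SW016789 library lay above every thapsigargin library (0.10 ± 0.072, edgeR adjusted p = 0.42). At 1 h and 2 h 0 members were called by edgeR or by DESeq2 (0.11% and 0.667% of tested genes by edgeR). An unadjusted p below 0.05 was reached by 0 and 1 members, the latter Copa. Over all genes 687 and 1811 of 21752 had such a p, and DESeq2 called 41 and 421.

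The balance of receptors to coat is a ratio within a library and does not depend on the scaling between libraries. The summed receptor level per kb was 41.4% ± 1.81 (SD, n = 3) of the summed coat level with DMSO at 6 h, with values of 43.5%, 40.0% and 40.8% in replicates 1 to 3. With thapsigargin at 6 h it was 31.1%, 33.2% and 33.5%, below each vehicle library. With SW016789 at 6 h it was 40.0%, 41.8% and 46.1%, which overlapped with DMSO. At 24 h the ratio was 42.8%, 43.6% and 42.6% with DMSO, 47.7%, 52.7% and 45.8% with SW016789 and 37.3%, 36.5% and 37.2% with thapsigargin, so that the 3 groups of that time did not overlap. Libraries of other times reached the SW016789 range, with 47.86% in DMSO replicate 2 at 2 h and 47.25% in thapsigargin replicate 2 at 1 h. Within the receptors, the share of Kdelr3 was 4.03%, 3.15% and 3.16% with SW016789 at 6 h against 1.40%, 1.56% and 1.95% with DMSO, and that of Kdelr1 was 35.6% ± 0.587 against 41.3% ± 0.93. Within the coat, Arcn1 took 26.5% ± 0.255 of the summed level with thapsigargin at 6 h against 23.3% ± 0.982 with DMSO, and Copz1 took 8.12% ± 0.51 against 9.87% ± 0.63. These ratios are sums over the chosen genes and were not tested.

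**Figure D3:**
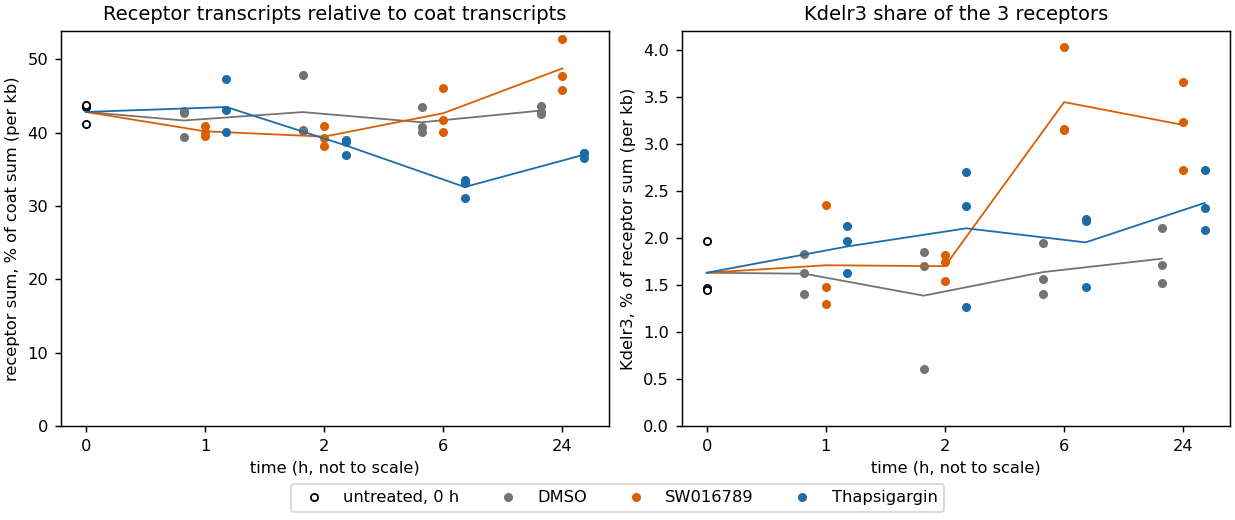
Left, summed receptor level as a percentage of the summed coat level (both per kb of exon) in each library against time in h (not to scale); right, Kdelr3 as a percentage of the summed receptor level. Points are libraries and lines join group means. The thapsigargin points at 6 h (31.1% to 33.5%) lie below all DMSO points. The Kdelr3 share is 2.72% or more in every SW016789 library at 6 and 24 h, and thapsigargin replicate 1 at 24 h also reaches 2.72%.

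The soluble cargo of the receptors included larger changes than the coat. A search of translated GENCODE M21 transcripts found 51 genes with a KDEL-type ending, and all were tested, though some encode proteins that do not work in the ER lumen, such as the glycolytic enzyme Pfkp. With SW016789 at 6 h, 17 of 51 were called higher and 1 lower (4.19% and 2.85% of all tested genes), with a median log2 fold change of 0.46 against 0.12 over all tested genes. The largest called were the disulfide isomerase Pdia4 (1.90 ± 0.098, edgeR adjusted p = 1.1e-16), the chaperone Hspa5 (BiP; 1.79 ± 0.099, 7.6e-16) and Sdf2l1, which works with BiP, (1.67 ± 0.11, 2e-14). At 24 h, 17 were higher and 0 lower (1.95% and 1.06% of all tested genes), with a median of 0.37 against 0.06, led by the calcium-binding Rcn3 (1.80 ± 0.28, edgeR adjusted p = 5e-05), Sdf2l1 (1.22 ± 0.10) and Pdia4 (0.98 ± 0.095). With thapsigargin at 6 h, 4 were higher and 10 lower, where 8.06% and 8.73% of all tested genes were, so the count of higher genes was near the background. The median of the 51 was 0.09 against 0.30 over all tested genes and -0.04 over those averaging 10 CPM or more. Hspa5 rose by 0.73 ± 0.097 (edgeR adjusted p = 5.2e-07), while the collagen glycosyltransferase Colgalt2 (-0.93 ± 0.20, edgeR adjusted p = 0.00057) was among those that fell. Pla2g12b was called on few counts (edgeR adjusted p = 0.0477), with 9, 32 and 10 against 0 in each DMSO library, at least 25.9-fold higher against a floor of 3 counts over the DMSO group. Without thapsigargin replicate 2, a library with 33.95% intergenic reads, the bound was 12.0-fold, and without replicate 1 it was 42.0-fold. At 24 h of thapsigargin 19 were higher and 5 lower (10.1% and 10.7% of all tested genes), with a median of 0.38 against 0.07, Hspa5 at 1.61 ± 0.098 (edgeR adjusted p = 1.4e-15) and Colgalt2 at -2.18 ± 0.20 (6.3e-11).

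Directly compared at 6 h, 20 of the 51 cargo genes were higher with SW016789 than with thapsigargin and 0 lower (7.54% and 4.01% of all tested genes), with the largest difference in Pdia4 (1.74 ± 0.097, edgeR adjusted p = 1.7e-15). At 24 h, 8 were higher and 5 lower, where 9.78% and 8.26% of all tested genes were, so the count of lower genes was near the background. Hspa5 was then lower with SW016789 by a log2 difference of -0.92 ± 0.097 (edgeR adjusted p = 2.1e-09), whereas it had been higher by 1.06 ± 0.097 at 6 h (4.5e-10).

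**Figure D4:**
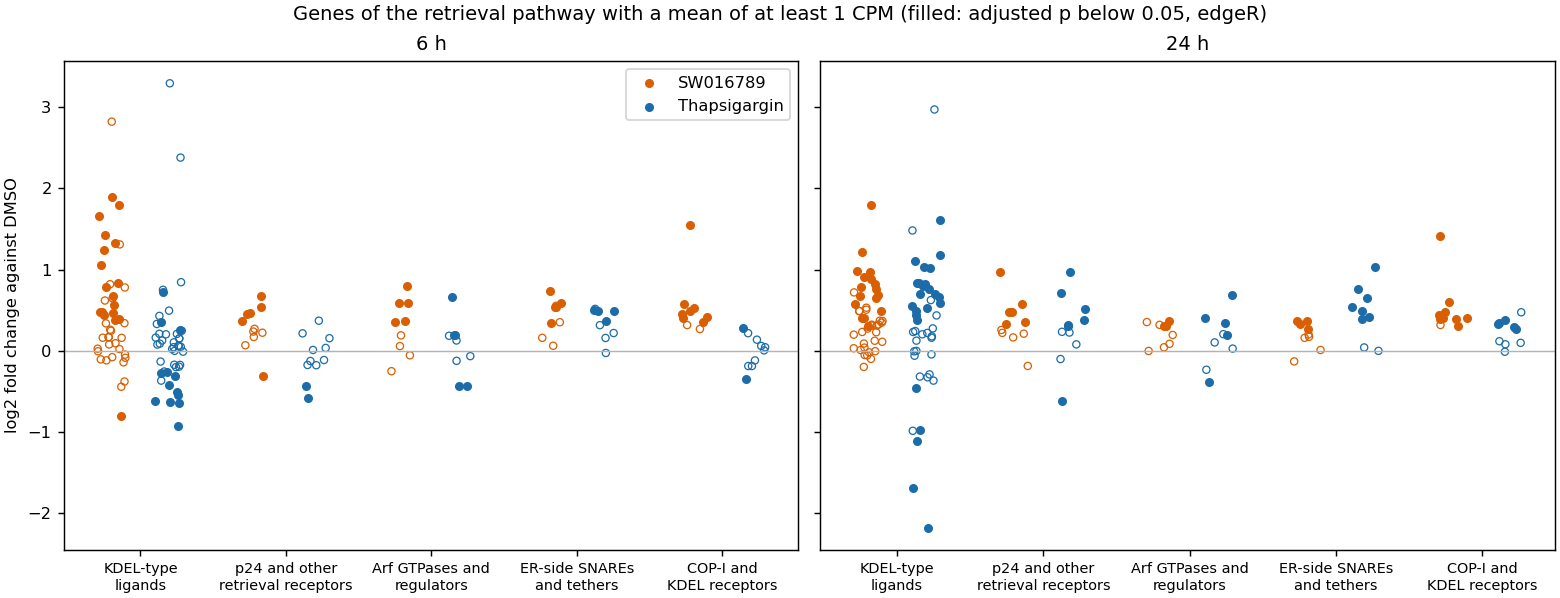
Log2 fold change against DMSO of the genes of 5 lists at 6 h (left) and 24 h (right), for genes averaging 1 CPM or more; each point is a gene and filled points passed edgeR's adjusted p of 0.05. With SW016789 the COP-I and KDEL receptor points all lie above 0 at both times, and with thapsigargin at 6 h 10 cargo genes were called lower.

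Other genes of the retrieval route were counted in the same fit, and their counts are read against the same background. That is 4.19% of all tested genes higher and 2.85% lower with SW016789 at 6 h, 1.95% and 1.06% at 24 h, 8.06% and 8.73% with thapsigargin at 6 h, and 10.1% and 10.7% at 24 h. Of 12 p24 proteins and other retrieval receptors, which pack or return membrane cargo, 5 were higher and 1 lower with SW016789 at 6 h (median 0.25), led by Tmed9 (0.68 ± 0.11, edgeR adjusted p = 3.4e-05), and 6 higher and 0 lower at 24 h (median 0.34), led by Tmed3 (0.97 ± 0.092, 3.9e-09). With thapsigargin, 0 were higher and 2 lower at 6 h (Tmed4, -0.44 ± 0.099, and Tmed8, -0.58 ± 0.085), and 6 higher and 1 lower at 24 h (medians -0.12 and 0.27). The 1 or 2 lower genes of 12 are near the background. SW016789 exceeded thapsigargin in 9 of 12 at 6 h (7.54% of all tested genes), most in Tmed2 (0.60 ± 0.083, edgeR adjusted p = 2.6e-06), and in 2 of 12 at 24 h (9.78%), near the background.

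Of 9 Arf GTPases and their regulators, 5 were higher and 0 lower with SW016789 at 6 h, among them Arfgap3, which triggers GTP hydrolysis on Arf (0.80 ± 0.097, edgeR adjusted p = 1.5e-07), and 3 higher at 24 h (medians 0.36 and 0.31). Thapsigargin gave 2 higher and 2 lower at 6 h, with Arfgap3 at 0.66 ± 0.097 (edgeR adjusted p = 3.7e-06) and Arf3 at -0.43 ± 0.091 (0.0006), and 4 higher and 1 lower at 24 h (medians 0.13 and 0.20), of which the single lower gene of 9 at 24 h is at the background. Of 9 SNAREs and tethers that receive COP-I vesicles at the ER, 5 were higher with SW016789 at 6 h and 4 at 24 h, and 4 and 7 with thapsigargin, with 0 lower in each case (medians 0.54, 0.20, 0.37 and 0.49). Nbas, a subunit of the NRZ tether, was the largest of these at 24 h of thapsigargin (1.03 ± 0.077, edgeR adjusted p = 2.7e-13) and was at 0.73 ± 0.077 with SW016789 at 6 h (5.6e-09). The direct comparison at 24 h put Nbas lower with SW016789 (-0.66 ± 0.076, edgeR adjusted p = 1.8e-08).

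Copg2 and Copz2 are paralogous subunits that can replace Copg1 and Copz1 in the coat. Copg2 was not called in any of the 12 comparisons of the treatments with DMSO or with each other. Copz2 was higher with SW016789 at 24 h (0.82 ± 0.18, edgeR adjusted p = 0.00472) and lower with thapsigargin at 6 h (-0.51 ± 0.18, 0.0498) and 24 h (-0.62 ± 0.18, 0.00979).

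For reference, the ER stress genes were induced by both agents at 6 h. Ddit3 (CHOP), a transcription factor of the terminal stress response, was at 2.33 ± 0.21 with SW016789 and 2.15 ± 0.21 with thapsigargin, and Atf4 at 1.41 ± 0.10 and 1.82 ± 0.10 (edgeR adjusted p at most 1.2e-09 for these 4 values). At 24 h Ddit3 was lower with SW016789 than with thapsigargin, by a log2 difference of -2.73 ± 0.21 (edgeR adjusted p = 1.9e-12). Of 9 CREB3-type and ER stress transcription factors, 5 were higher with SW016789 and 5 with thapsigargin at 6 h, and 4 and 6 at 24 h, with 0 lower. The shares of all tested genes called higher in these comparisons were 4.19%, 8.06%, 1.95% and 10.1%.

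Across the 13 group means, the genes most like the mean profile of the coat were Ero1l, which reoxidises disulfide isomerases (Pearson r = 0.987), Pdia6 (0.983), the oligosaccharyltransferase subunit Ostc (0.978), the cargo receptor Lman1 (0.977), the glucosidase Mogs (0.977), Pdia3 (0.976), Ssr1 (0.973) and Cog6 (0.970), out of 14115 genes of at least 1 CPM. The nearest to Kdelr1 were Ddb1 (0.990), Dad1 (0.974), H2-K1 (0.967), Ost4 (0.954) and Spcs1 (0.952). The nearest to Kdelr2 were Mlec (0.986), Sec13 (0.978), Chpf2 (0.970), Ap3m1 (0.966) and P4hb (0.955), and those to Kdelr3 were Hapln4 (0.964), Ufsp2 (0.959), Slc35c1 (0.946), Surf4 (0.941) and Yif1a (0.933). Among the members themselves r ran from 0.511 for Arcn1 with Kdelr1 to 0.982 for Copz1 with Kdelr2. These are descriptions over 13 means that share libraries and depth.

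Some other measures moved with the groups, and their part in these results was not tested. The summed level of the 10 β-cell markers was 16600 to 18000 CPM with thapsigargin at 6 h and 17200 to 18300 CPM at 24 h, against 28000 to 31200 CPM and 30400 to 38600 CPM with DMSO, and 24000 to 35600 CPM and 25500 to 29200 CPM with SW016789. The sum of the 12 acinar and ductal markers was 14.3 to 22.1 CPM with DMSO at 6 h, 51.3 to 69.5 CPM with SW016789 and 56.9 to 66.3 CPM with thapsigargin. At 24 h it was 15.7 to 18.6, 29.9 to 40.3 and 75.3 to 85.9 CPM in the same order. Bhlha15 was at 16.6 CPM at 0 h and reached 83.3 CPM, while the acinar enzymes Pnlip, Cpb1 and Cel were at 0, 0.0187 and 0.0265 CPM at 0 h and reached 1.87, 1.43 and 8.08 CPM in a library. Of this list 2 markers were at 0 with DMSO at 6 h, 1 with DMSO at 24 h and 0 in the treated groups of these times. The other islet markers summed to 268 to 295 CPM with DMSO at 6 h, 294 to 349 CPM with SW016789 and 148 to 188 CPM with thapsigargin, and at 24 h to 329 to 347, 252 to 325 and 66.2 to 73.1 CPM, nearly all of it Gcg. The 12 stromal, endothelial and immune markers summed to 11.6 to 14.6, 10.8 to 44.1 and 15.5 to 58.0 CPM at 6 h and to 9.31 to 12.1, 10.3 to 22.5 and 12.4 to 15.2 CPM at 24 h. Intergenic reads took 6.80% to 7.55% with DMSO at 6 h, 6.17% to 26.5% with SW016789 and 8.23% to 33.95% with thapsigargin. Without the libraries above 25%, thapsigargin at 6 h gave 2 members higher and 1 lower. Of the 21643 genes tested then, 1481 were higher and 1560 lower. The counts of members called against DMSO at 24 h were 10 for SW016789 and 5 for thapsigargin. Over all genes they were 726 and 4866.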

How the data were processed

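RNA-seq was measured in 39 MIN6 libraries. Per the labels, rRNA was removed with QIAseq FastSelect before a KAPA RNA HyperPrep preparation, while the study's methods name a KAPA mRNA kit. The submitters' processing notes name STAR 2.5.2b, Subread 1.5.1 with featureCounts and mm10, and the methods name later versions and strand-aware counting. The deposited raw counts per gene were used as given, and 78 deposited normalized columns (log2 FPKM, TPM) were not used. Counts were filtered with filterByExpr, scaled with TMM and fitted with edgeR 4.0.16 (quasi-likelihood, R 4.3.3) over 13 groups, with Benjamini-Hochberg adjustment over 21752 genes. DESeq2 1.42.0 was an alternative, with other scalings, filters, library sets and the experiment as a block.

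Replicate numbers name the independent experiments, so they pair the libraries. The median r between the libraries' deviations from their group means was 0.0577 for 234 pairs of the same number (105 above 0.1) and -0.0271 for 468 pairs of different numbers (137 above 0.1). No 2 libraries of a group were the same library (chi-square per degree of freedom at least 5.87 over 39 pairs). P-values measure the spread between cultures of 1 line.

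All 10 members were named. Of each list, at most 3 genes with the largest called change in either direction were named per comparison, and likeness was ranked by Pearson r over group means of log2 CPM. Members and lists were chosen with earlier results of these data known. KDEL-type endings were read from translated annotated transcripts, because a protein table was not used here.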

Additional observations from a re-analysis of the deposited data

Results flagged for a closer look

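For 2 members the SW016789 effect differed between 2 h and 6 h by a test of that difference itself. The log2 fold change against DMSO of Kdelr2 was higher at 6 h than at 2 h by 0.566 ± 0.14 (SE, edgeR adjusted p = 0.0274), and that of Arcn1 by 0.386 ± 0.10 (edgeR adjusted p = 0.041). No call of this kind held whichever library was left out.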

How the results depend on the processing

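No result reversed. Counts of members called with SW016789 against DMSO were 2 to 10 at 6 h and 4 to 8 at 24 h when 1 library was left out, and 0 at 1 h and 2 h. The calls over all genes in the same refits were 572 to 1155 at 6 h and 297 to 516 at 24 h. With thapsigargin the counts of members called were 0 to 2 at 6 h and 0 to 5 at 24 h. The calls over all genes were 1673 to 3806 and 3054 to 3840. The direct comparison gave 4 to 9 members at 6 h and 3 to 5 at 24 h. Over all genes it gave 915 to 2581 and 2358 to 3400. The change of the SW016789 effect from 2 h to 6 h gave 0 to 3 members, with 45 to 697 calls over all genes. That of thapsigargin from 6 h to 24 h gave 0 to 2, with 523 to 1490. Over all times the members called were 6 to 10 for SW016789 and 0 to 5 for thapsigargin. The calls over all genes were then 907 to 3119 and 4177 to 10181. Under DESeq2 only the following counts of members moved by over 1.5 times. They were 4 (from 2) for thapsigargin at 6 h. For the SW016789 change they were 8 (from 2) from 2 h to 6 h and 1 (from 0) from 6 h to 24 h. For the thapsigargin change they were 1 (from 0) from 2 h to 6 h and 2 (from 0) from 6 h to 24 h. In this order DESeq2 called 5914, 766, 808, 1458 and 2104 over all genes, against 3653, 287, 316, 695 and 1365 by edgeR. TMM taken from genes of at least 10 CPM was an alternative chosen after seeing the data. It gave 4 members for thapsigargin at 6 h and 6 for the SW016789 change from 2 h to 6 h. The thapsigargin change over that interval gave 1. The calls over all genes were then 3894, 440 and 891. With DESeq2 size factors in edgeR the SW016789 change from 2 h to 6 h gave 4, and with no filter 1. With only the libraries compared it gave 0, where the fit had fewer samples. Over all genes this change had 385, 272 and 62 calls. With only the libraries compared, SW016789 against thapsigargin at 6 h gave 4 and the thapsigargin change from 6 h to 24 h gave 2. Without the libraries above 25% intergenic reads that change gave 1. The calls over all genes were 749, 2162 and 1344 in this order. With the experiment number as a replicate block the thapsigargin change from 6 h to 24 h gave 1 (Cope). That change had 2029 calls over all genes. The calls given beside the results were gained, and no other call changed. With the replicate block and the intergenic percent together, SW016789 at 2 h gave 1 and thapsigargin at 6 h gave 5. The SW016789 change gave 9 from 2 h to 6 h and 1 from 6 h to 24 h. The thapsigargin change gave 1 from 2 h to 6 h and 1 from 6 h to 24 h. In this order the calls over all genes were 1315, 3684, 822, 914, 1582 and 2200. The full fit had 562, 3653, 287, 316, 695 and 1365. Copg1 lost its call between treatments at 6 h with no filter and with the block and intergenic percent, and Arcn1 lost its change from 2 h to 6 h with no filter. The cause of these moves was not tested. Over all genes, SW016789 against DMSO called 1531 at 6 h and 655 at 24 h by edgeR and 2406 and 1263 by DESeq2. Thapsigargin at 6 h called 3653 by edgeR (1753 higher, 1900 lower) and 5914 by DESeq2 (3834 higher, 2080 lower). Depth limits Kdelr3 most, whose counts started at 72.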
